A study of Mus musculus with 16 samples.

Results

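The inhibitory receptors of T cells are surface proteins that dampen activation when they meet a ligand on another cell. The 10 genes of this class were compared across 4 culture media: Pdcd1, Ctla4, Havcr2, Lag3, Tigit, Btla, Cd160, Cd244, Entpd1 and Cd200. All 10 were among the 17159 genes of the depth-normalized table, and all 10 were among the 12469 genes whose mean over the libraries was high enough to test. The cells were mouse CD8+ T cells of strain C57BL/6, stimulated through CD3 and CD28 with antibodies for 2 days and then held for 36 h in 1 of the media. The media were B16F10 supernatant with methionine added back (supplemented supernatant), B16F10 supernatant alone (supernatant), fresh medium lacking methionine, and fresh medium containing it (complete fresh medium). B16F10 is a mouse melanoma cell line, and its supernatant is the medium those cells had conditioned. Every group carried the same prior stimulation, and no unstimulated cells were analysed here. Each medium had 4 libraries, 16 in all, and no label says whether those 4 came from separate animals or cultures, so p-values measure only the spread between libraries, which may be technical.

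As background, PD-1 (Pdcd1), BTLA and TIGIT carry tyrosine motifs in their cytoplasmic tails that recruit phosphatases, which act on signals from the T cell receptor and CD28. CTLA-4 competes with CD28 for the shared ligands CD80 and CD86, and LAG-3 binds MHC class II and other ligands. Most of these genes are induced by T cell activation itself, so they mark recently stimulated cells as well as the exhausted cells of chronic infection and tumours. Methionine supplies protein synthesis and is the precursor of S-adenosylmethionine, the methyl donor of the cell.

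Levels are depth-normalized reads (reads divided by the authors' factor for each library). Fold changes are log2 differences of that value plus 1, tested in limma over all 12469 genes and called where the Benjamini-Hochberg adjusted p was under 0.05. Intervals are unadjusted 95% intervals from that fit. Libraries held 25799636 to 42308209 recovered reads, and the receptors had between 52 reads (Cd244) and 24156 reads (Ctla4) in a library. The 9 CD8 T cell markers summed to 164406 to 175485 in supplemented supernatant, 137913 to 141091 in supernatant, 119199 to 121369 in fresh medium without methionine and 156372 to 161468 in complete fresh medium. For methionine removal in fresh medium 2 of them were called higher, 6 lower and 1 not called, where 43.3% of all genes were called higher and 42.3% lower. Cd8a averaged 30626 reads in fresh medium without methionine and 24492 in complete fresh medium, and Cd3g 4931 and 15789. Marker lists of other cells summed lower, to different degrees. In any library 8 myeloid and dendritic markers summed to 143 to 275 reads, and 6 melanoma markers to 91.0 to 282. The 5 B cell markers summed to 363 to 966, the 6 CD4 T cell markers to 4046 to 6390.3 and the 7 natural killer cell markers to 8758 to 15974. In bulk RNA, fewer cells of a type and less RNA per cell cannot be told apart.

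Promoters are shown for Btla and Cd200, the receptors that rose most without methionine, and for Pdcd1, which rose by less. Those of Ctla4 and Cd244, which moved in other ways, are shown too. Members which moved together can thus be compared in sequence. Promoter windows of RefSeq on GRCm38.p6 hold 300 bases around the annotated start, and 9 of the 10 receptors had one (Lag3 had no entry). They were searched on both strands for GGAAA (the core bound by NFAT), TGANTCA (AP-1) and TGACGTCA (the full cyclic AMP response element), and capitals mark matches.
Btla (chr16:45224087-45224386, plus strand): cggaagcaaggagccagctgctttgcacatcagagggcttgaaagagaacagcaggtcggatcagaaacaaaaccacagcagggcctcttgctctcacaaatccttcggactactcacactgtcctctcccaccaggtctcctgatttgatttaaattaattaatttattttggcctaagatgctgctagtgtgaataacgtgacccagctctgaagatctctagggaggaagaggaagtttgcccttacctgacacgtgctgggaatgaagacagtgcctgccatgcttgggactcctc
Cd200 (chr16:45409004-45409303, minus strand): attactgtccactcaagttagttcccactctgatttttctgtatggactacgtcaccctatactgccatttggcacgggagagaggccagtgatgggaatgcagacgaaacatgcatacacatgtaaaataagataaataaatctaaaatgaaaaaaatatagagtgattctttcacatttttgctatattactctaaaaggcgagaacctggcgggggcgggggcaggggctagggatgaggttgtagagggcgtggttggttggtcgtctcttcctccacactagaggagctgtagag
Pdcd1 (chr1:94052504-94052803, minus strand): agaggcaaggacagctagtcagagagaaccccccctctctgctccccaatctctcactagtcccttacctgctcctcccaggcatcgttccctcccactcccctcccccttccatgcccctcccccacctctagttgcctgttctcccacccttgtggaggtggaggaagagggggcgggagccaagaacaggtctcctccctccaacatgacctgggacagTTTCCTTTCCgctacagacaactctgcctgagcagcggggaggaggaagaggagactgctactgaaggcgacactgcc
Ctla4 (chr1:60908775-60909074, plus strand): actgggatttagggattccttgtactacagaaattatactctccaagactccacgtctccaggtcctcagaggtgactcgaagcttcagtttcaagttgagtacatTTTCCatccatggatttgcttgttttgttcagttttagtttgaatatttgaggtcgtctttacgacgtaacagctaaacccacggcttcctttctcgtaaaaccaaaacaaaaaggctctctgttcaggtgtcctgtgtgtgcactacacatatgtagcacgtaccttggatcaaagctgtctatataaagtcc
Cd244 (chr1:171558943-171559242, plus strand): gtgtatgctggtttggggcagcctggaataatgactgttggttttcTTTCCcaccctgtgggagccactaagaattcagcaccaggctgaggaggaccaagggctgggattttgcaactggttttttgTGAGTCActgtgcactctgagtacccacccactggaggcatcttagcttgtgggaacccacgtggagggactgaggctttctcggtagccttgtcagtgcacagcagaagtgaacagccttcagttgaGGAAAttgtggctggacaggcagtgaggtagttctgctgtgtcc
Btla and Cd200 held none of the 3 motifs in this window. Cd160 and Entpd1 held none either in the window nearest the gene start, though their other window held GGAAA. Both of these fell without methionine in fresh medium (log2 fold change -1.95 and -0.81). Of the 9 receptors, using for Cd160 and Entpd1 the window nearest the gene start, 4 (Pdcd1, Ctla4, Tigit and Cd244) held GGAAA, beside 61.3% of 32851 windows of this length in the table. Pdcd1 held it at adjacent positions. TGANTCA was found in 2 (Havcr2 and Cd244), beside 7.81% of all windows, and TGACGTCA in 0, beside 1.79%. The Ctla4 window lies 22025 bases inside the GENCODE M21 gene, whose annotated start is further upstream.

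On GRCm38 (GENCODE M21), Btla lies on chromosome 16, 45224315 to 45257670, on the plus strand, and Cd200 on chromosome 16, 45382135 to 45409053, on the minus strand. They point toward each other, and no annotated gene lies in the 124465 bases between them, which was looked up after their values were seen. Tigit is on the same chromosome (43648867 to 43664146). Pdcd1 (chromosome 1, 94038305 to 94052553), Ctla4 (60887000 to 60915832) and Cd244 (171559193 to 171609746, annotated as Cd244a) share a chromosome as well, and Pdcd1 rose and Cd244 fell without methionine. Lag3 is on chromosome 6, 124904361 to 124911705, Cd160 on chromosome 3, 96798763 to 96829351, Havcr2 on chromosome 11, 46454935 to 46481255 and Entpd1 on chromosome 19, 40612366 to 40741602.

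Compared per transcript length, in FPKM (fragments scaled to transcript length and library size), Ctla4 was the most abundant of the 10 receptors in every medium. Its FPKM averaged 118 ± 11.6 in supplemented supernatant, 296 ± 65.9 in supernatant, 272 ± 36.3 in fresh medium without methionine and 289 ± 45.8 in complete fresh medium (SD, n = 4 each). That was on average 43.0% of the summed FPKM of the 10 receptors in supplemented supernatant, 65.6% in supernatant, 68.3% in fresh medium without methionine and 58.6% in complete fresh medium. Lag3 came next in every medium, with 83.1 ± 19.9 FPKM in supplemented supernatant and 121 ± 19.5 in complete fresh medium (SD, n = 4 each), followed by Tigit. Cd244 was the lowest everywhere, with 2.51 ± 0.318 FPKM in supplemented supernatant and 0.409 ± 0.0931 in fresh medium without methionine (SD, n = 4 each). The middle of the order moved with the medium. Mean FPKM put Btla just after Tigit in fresh medium without methionine and below Entpd1 in complete fresh medium, while Cd160 stood below Cd200 in fresh medium without methionine and just after Tigit in complete fresh medium.

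**Figure D1:**
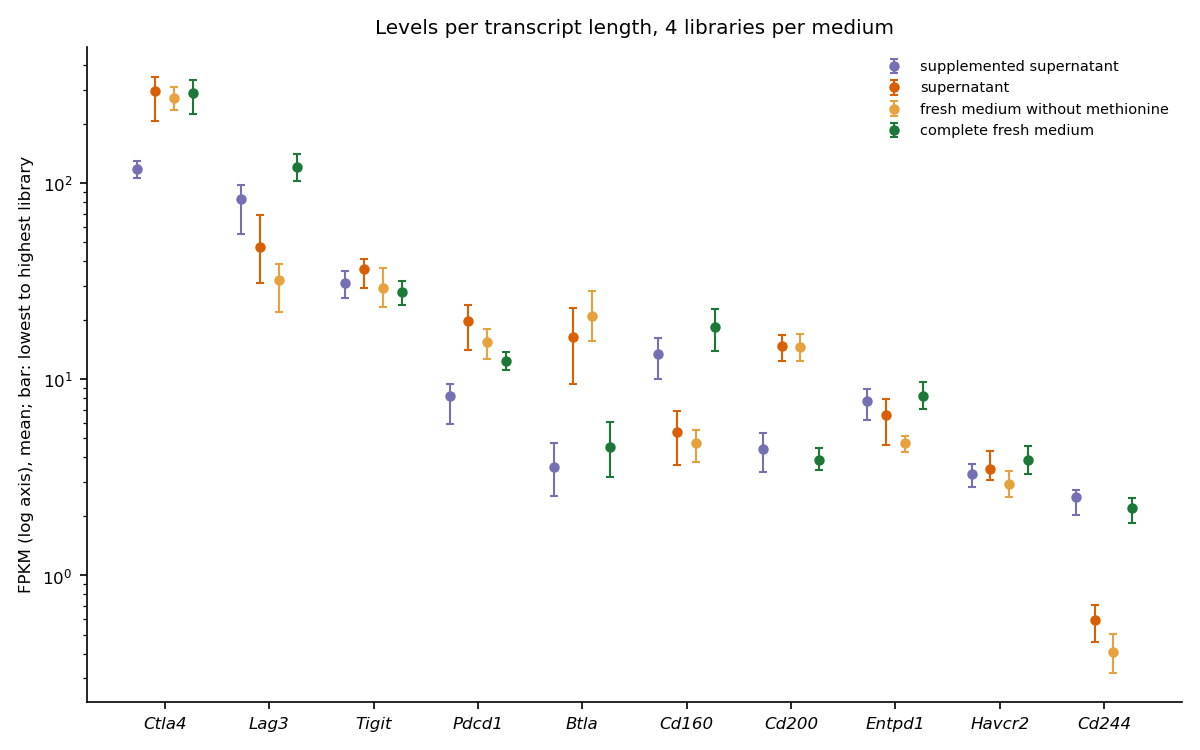
FPKM of each receptor gene on a log axis, with the mean of 4 libraries as a point and the lowest and highest library as bar ends, coloured by medium. Ctla4 is highest in every medium, at 118 FPKM in supplemented supernatant and 289 in complete fresh medium, and Cd244 is lowest.

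Withdrawal of methionine moved the 10 receptors in both directions. In fresh medium without methionine, 4 receptors (Btla, Cd200, Pdcd1 and Tigit) were called higher than in complete fresh medium and 6 (Cd244, Cd160, Lag3, Entpd1, Havcr2 and Ctla4) lower. Over all genes tested, 43.3% were called higher and 42.3% lower in this comparison; a receptor being called therefore did not set it apart. In either direction 85.6% were called. The libraries of the media did not overlap for 8 of the 10 receptors, as for 81.3% of all genes. The receptors' median absolute log2 change was 1.28, beside 0.57 over all genes. In supernatant against complete fresh medium, 4 (again Btla, Cd200, Pdcd1 and Tigit) were higher, 4 lower and 2 (Ctla4 and Havcr2) not called, where 43.0% of all genes were higher and 42.5% lower (85.5% in all). Libraries did not overlap for 8 receptors, beside 80.0% of all genes. When methionine was added to supernatant, 4 receptors were higher, 5 lower and 1 not called relative to supernatant, where 41.8% of all genes were higher and 41.8% lower (83.7% in all). Libraries did not overlap for 9 receptors, beside 78.1% of all genes. Comparisons against complete fresh medium share its 4 libraries, and both supernatant comparisons share the supernatant libraries, so each comparison's values are given side by side.

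**Figure D2:**
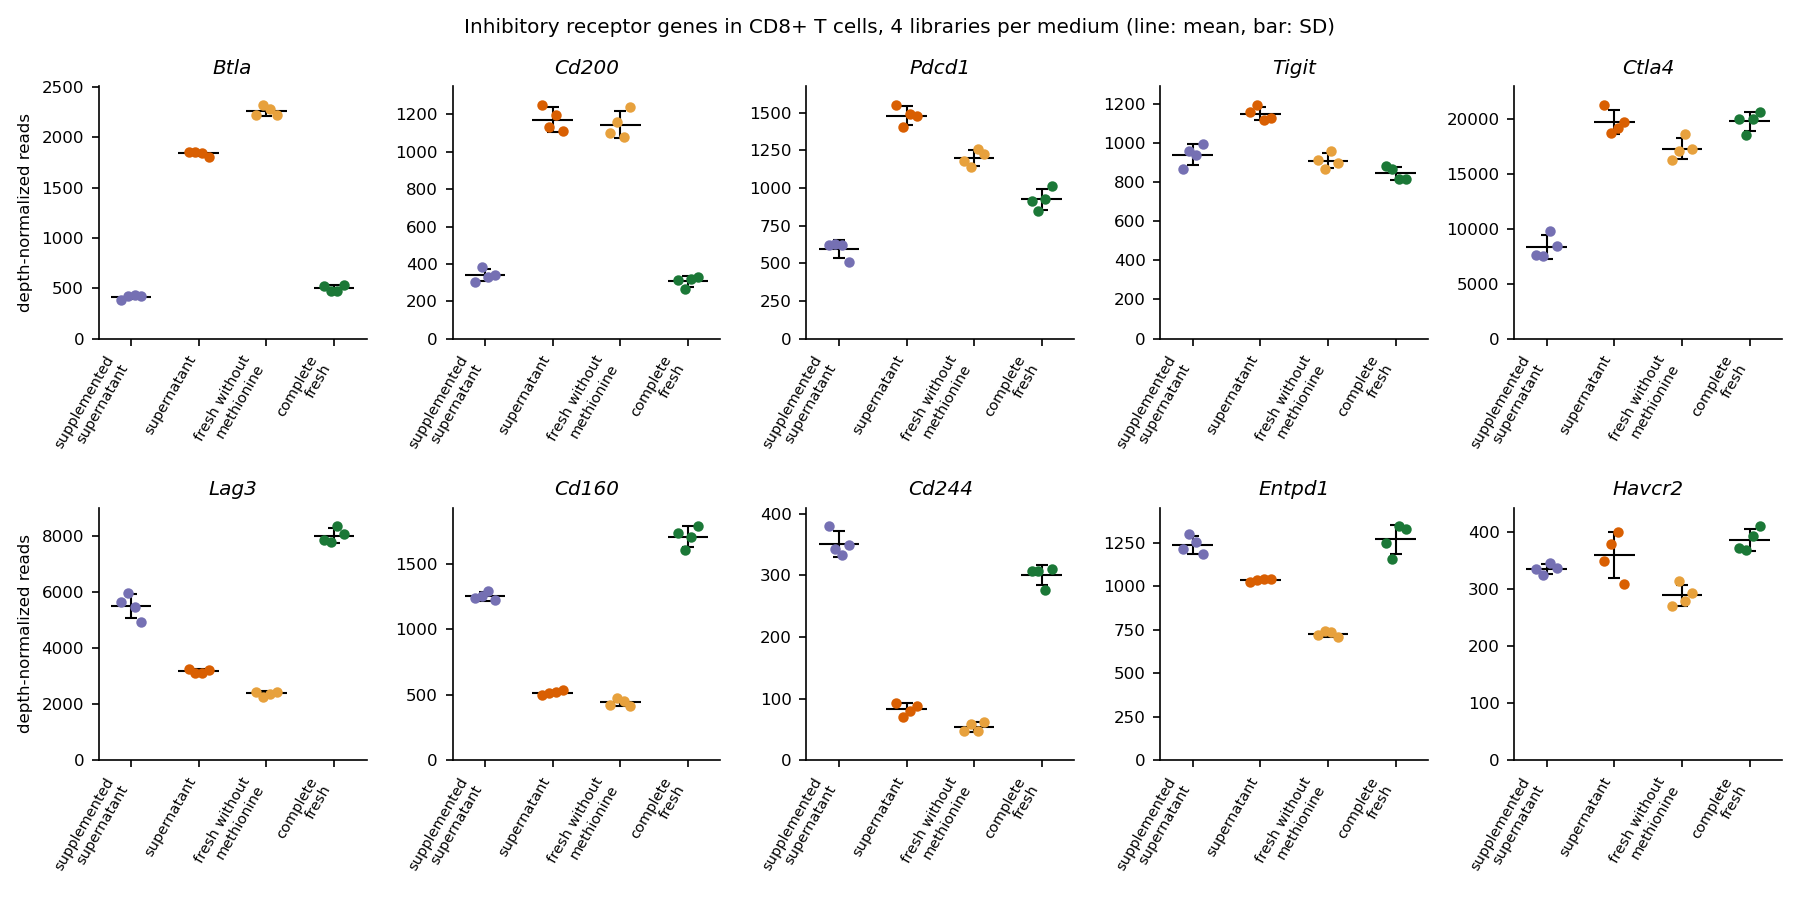
Depth-normalized reads of each receptor in each of 16 libraries, by medium, with the mean as a line and the SD as a bar (4 libraries per medium). Btla and Cd200 stand high in supernatant and in fresh medium without methionine, Lag3, Cd160 and Cd244 stand low there, and Ctla4 is low in supplemented supernatant, at 7515 to 9837 reads.

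Btla and Cd200 were the receptors that rose most without methionine. Btla is an inhibitory receptor of the immunoglobulin family whose ligand is HVEM, encoded by Tnfrsf14. It had 382, 427, 429.6 and 428 depth-normalized reads in supplemented supernatant, 1853, 1858, 1850.2 and 1805 in supernatant, 2224, 2325, 2282 and 2221 in fresh medium without methionine, and 522, 471, 475 and 536 in complete fresh medium. The libraries of the media without added methionine all lay above all libraries of the other media. Its log2 fold change was 2.17 (SE 0.0498, adjusted p 2.4e-28) in fresh medium without methionine over complete fresh medium and 1.88 (SE 0.0498, adjusted p 1.43e-26) in supernatant over the same medium, and it was -2.14 (SE 0.0498, adjusted p 7.1e-28) for supplemented supernatant over supernatant.

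Cd200 encodes a surface glycoprotein that signals through the receptor CD200R1 on other leukocytes, so among these genes it is a ligand rather than a receiver of the signal. It had 305, 382, 328 and 342 depth-normalized reads in supplemented supernatant, 1252, 1132, 1198 and 1109.9 in supernatant, 1099, 1162, 1080.1 and 1241 in fresh medium without methionine, and 313, 264, 317 and 330.1 in complete fresh medium. As for Btla, libraries with and without added methionine did not overlap. Its log2 fold changes were 1.90 (SE 0.07, adjusted p 1.28e-22) for methionine removal in fresh medium, 1.94 (SE 0.07, adjusted p 7.86e-23) for supernatant and -1.79 (SE 0.07, adjusted p 1.06e-21) for methionine added to supernatant. Supernatant and fresh medium without methionine overlapped, with an interval of -0.11 to 0.18 for the log2 difference between them.

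Both genes are also expressed by B cells, and B cell markers moved the same way. The 5 B cell markers summed to 363 to 385 in supplemented supernatant, 731 to 858 in supernatant, 778 to 966 in fresh medium without methionine and 503 to 542 in complete fresh medium, and the 3 that could be tested were all called higher in fresh medium without methionine than in complete fresh medium, as were 43.3% of all genes. Most of that sum was Cd79b. Ms4a1 had 10.2 reads or fewer in every library and Pax5 averaged 1.48 reads or fewer in every medium, beside at least 1805 reads of Btla and 1080.1 of Cd200 in every library without added methionine. The sum of melanoma markers moved in the same direction, though not every marker did. The 6 summed to 91.0 to 144 reads in supplemented supernatant and 231 to 257 in supernatant. They summed to 257 to 282 in fresh medium without methionine and 103 to 134 in complete fresh medium. Of these, Pmel had a log2 fold change of 2.57 for methionine removal in fresh medium and -2.20 for methionine added to supernatant, Mitf was called higher in fresh medium without methionine (mean 49.0 reads) than in complete fresh medium (24.5) and had -0.33 without a call for methionine added to supernatant, and Tyrp1 had 3.52 reads or fewer in every library. In depth-normalized reads Tyr went the other way in fresh medium, averaging 37.8 without methionine and 62.2 in complete fresh medium. It averaged 54.2 reads in supernatant and 52.8 in supplemented supernatant. In mean FPKM, however, Tyr was higher in fresh medium without methionine (2.60) than in complete fresh medium (1.78). Its mean FPKM was 2.59 in supernatant and 1.57 in supplemented supernatant. Pmel averaged 2.94 FPKM in fresh medium without methionine and 2.08 in complete fresh medium. Of the 3 melanoma markers tested, 2 were called higher and 1 lower for methionine removal in fresh medium, where 43.3% of all genes were called higher and 42.3% lower. Mlana averaged 5.31 reads or fewer and Dct 1.29 reads or fewer in every medium. Neither fresh medium was B16F10 supernatant. The part of B cells or melanoma RNA in the Btla and Cd200 values was not tested.

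Pdcd1, the gene of PD-1, rose by less without added methionine, and in supplemented supernatant it was lower than in complete fresh medium. It had 623, 625, 624 and 507 depth-normalized reads in supplemented supernatant, 1554, 1403, 1493 and 1476 in supernatant, 1177, 1142, 1258 and 1225 in fresh medium without methionine, and 916, 847, 927 and 1013 in complete fresh medium. No 2 media overlapped, with the order supernatant, fresh medium without methionine, complete fresh medium, supplemented supernatant from high to low. Its log2 fold change was 0.38 (SE 0.0598, adjusted p 7.63e-07) for methionine removal in fresh medium, 0.68 (SE 0.0598, adjusted p 2.43e-12) for supernatant, -1.32 (SE 0.0598, adjusted p 6.5e-20) for methionine added to supernatant, and -0.64 (SE 0.0598, adjusted p 4.22e-11) for supplemented supernatant over complete fresh medium. In the FPKM table the first of these was not called (0.32, adjusted p 0.135), and with the replicate block it was (adjusted p 0.00179).

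Tigit, whose product binds the poliovirus receptor CD155 (Pvr) and nectins, was highest in supernatant. It had 868, 959, 936 and 997 depth-normalized reads in supplemented supernatant, 1157, 1195, 1117 and 1129 in supernatant, 913, 866, 961 and 899 in fresh medium without methionine, and 881, 865, 816 and 818 in complete fresh medium. All libraries in supernatant lay above all others. Its log2 fold change was 0.44 (SE 0.0494, adjusted p 6.38e-10) for supernatant over complete fresh medium, 0.34 (SE 0.0494, adjusted p 2.41e-06) for supernatant over fresh medium without methionine and -0.29 (SE 0.0494, adjusted p 2.53e-06) for supplemented supernatant over supernatant. Methionine removal in fresh medium gave 0.11 (SE 0.0494, adjusted p 0.0459), with overlapping libraries. That call is at the threshold: it was lost on leaving out replicate 2 (adjusted p 0.12) or 3 (0.109) of complete fresh medium, replicate 0 (0.0766), 2 (0.163) or 3 (0.0561) of fresh medium without methionine, or replicate 0 (0.0511), 2 (0.0506) or 3 (0.0501) of supernatant, which shares in the estimate of spread, and with the replicate block (0.0582). On FPKM it was not called with the block or without it (adjusted p 0.529 with it, 0.781 without).

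Ctla4 was lowest in supplemented supernatant, and its largest changes were those of that medium. It had 7598, 7515, 9837 and 8485 depth-normalized reads in supplemented supernatant, 21317, 18758, 19215 and 19773 in supernatant, 16254, 17091, 18627 and 17322 in fresh medium without methionine, and 19984, 18559, 19999 and 20629 in complete fresh medium. Supplemented supernatant held the 4 lowest libraries, and supernatant and complete fresh medium overlapped. The log2 fold change was -1.25 (SE 0.0539, adjusted p 1.68e-20) for supplemented supernatant over supernatant and -1.25 (SE 0.0539, adjusted p 1.22e-19) for supplemented supernatant over complete fresh medium. Supernatant over complete fresh medium was not called (-0.0026, interval -0.11 to 0.11, adjusted p 0.965). Its direction depended on scaling: under total-read scaling, which puts the median of all genes at 0.15, it was called higher (0.14, adjusted p 0.0129), as it was with quantile normalization (0.24, adjusted p 0.000229). Methionine removal in fresh medium gave a fall of 0.19 (SE 0.0539, adjusted p 0.00149) on the log2 scale, which was not called with total-read scaling (-0.033, adjusted p 0.558) or on FPKM (-0.079, where the block gave an adjusted p of 0.406 and its absence 0.708), and which turned positive without a call under quantile normalization (0.083, adjusted p 0.154).

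Regulatory CD4 T cells express Ctla4 and Tigit at high levels, so markers of CD4 cells are given beside them. The 6 CD4 T cell markers summed to 4737 to 5155 in supplemented supernatant, 5741 to 6390.3 in supernatant, 5735 to 5893 in fresh medium without methionine and 4046 to 4338 in complete fresh medium. Foxp3, the transcription factor of regulatory T cells, averaged 156 reads in supplemented supernatant, 233 in supernatant, 196 in fresh medium without methionine and 50.8 in complete fresh medium, while Cd4 itself averaged 137 reads in supplemented supernatant, 172 in supernatant, 163 in fresh medium without methionine and 182 in complete fresh medium. The sum of the 6 was mostly Zbtb7b and Gata3. For methionine removal in fresh medium 3 were called higher: Foxp3 (log2 fold change 1.92), Zbtb7b (1.04) and Cd40lg (0.73). Gata3 (-0.27) and Cxcr5 (-0.36) were called lower and Cd4 was not called, where 43.3% of all genes were called higher and 42.3% lower. Foxp3 was lowest in complete fresh medium and highest in supernatant, as was Tigit, which averaged 1149.6 ± 34.7 reads in supernatant and 845 ± 33.2 in complete fresh medium (SD, n = 4 each). The sizes differed, since methionine removal in fresh medium gave a log2 fold change of 1.92 for Foxp3 and 0.11 for Tigit. Ctla4 averaged 19793 ± 876 reads in complete fresh medium (SD, n = 4). The part of such cells in the Ctla4 and Tigit values was not tested.

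Lag3, Cd160 and Cd244 fell in both media without added methionine and rose when it was added to supernatant. Lag3 encodes a CD4-like receptor that binds MHC class II. It had 5641, 5982, 5484 and 4932 depth-normalized reads in supplemented supernatant, 3269.7, 3118, 3112 and 3225 in supernatant, 2445, 2252, 2374 and 2447 in fresh medium without methionine, and 7867, 7788, 8354 and 8076 in complete fresh medium. No 2 media overlapped. The log2 fold change was -1.75 (SE 0.0408, adjusted p 3.9e-28) for methionine removal in fresh medium, -1.33 (SE 0.0408, adjusted p 7.86e-25) for supernatant, 0.79 (SE 0.0408, adjusted p 2.44e-18) for methionine added to supernatant and -0.54 (SE 0.0408, adjusted p 2.11e-13) for supplemented supernatant over complete fresh medium.

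Cd160 encodes a lipid-anchored receptor of the immunoglobulin family that shares the ligand HVEM with BTLA. It had 1234, 1255, 1294 and 1219 depth-normalized reads in supplemented supernatant, 499, 512, 518 and 532 in supernatant, 419.9, 478, 449 and 415 in fresh medium without methionine, and 1736, 1604, 1702 and 1786 in complete fresh medium. Again no 2 media overlapped, and the order was that of Lag3, with complete fresh medium highest and fresh medium without methionine lowest. Its log2 fold changes were -1.95 (SE 0.0512, adjusted p 1.06e-26) for methionine removal in fresh medium, -1.72 (SE 0.0512, adjusted p 3.38e-25) for supernatant and 1.28 (SE 0.0512, adjusted p 2.17e-21) for methionine added to supernatant. On the annotation, Cd160 shares 68 exon bases with Pdzk1 on the opposite strand, and the strand used in counting is not given. The part of Pdzk1 reads in the Cd160 values was not tested. Pdzk1 moved the opposite way, with 6.06 to 21.2 reads in supplemented supernatant, 522 to 562 in supernatant, 467 to 542 in fresh medium without methionine and 11.3 to 25.7 in complete fresh medium.

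Cd244, also called 2B4, encodes a receptor for CD48 that signals through the adaptor SAP and can activate or inhibit. It had 380.0, 343, 333 and 349 depth-normalized reads in supplemented supernatant, 93.0, 70.4, 79.5 and 87.7 in supernatant, 47.5, 58.3, 47.3 and 62.2 in fresh medium without methionine, and 308, 308, 276 and 310.1 in complete fresh medium. Libraries with and without added methionine did not overlap. Its log2 fold change of -2.47 (SE 0.11, adjusted p 3.18e-20) for methionine removal was the largest fall among the 10 receptors, and it was -1.86 (SE 0.11, adjusted p 8.66e-17) for supernatant and 2.08 (SE 0.11, adjusted p 4.85e-18) for methionine added to supernatant. Supplemented supernatant over complete fresh medium had 0.22 (interval -0.00070 to 0.45, adjusted p 0.0749) and was called with edgeR on 15 libraries (adjusted p 0.0137), with DESeq2 on those libraries (adjusted p 0.022) and with the libraries of these media alone (adjusted p 0.0139). The gene body overlaps Ly9 on the other strand, with no exon base in common. Ly9 moved in the same direction as Cd244 at higher counts, with 5106 to 5320.0 reads in supplemented supernatant, 2132 to 2369 in supernatant, 2096 to 2136 in fresh medium without methionine and 5762 to 6296 in complete fresh medium. The counting tool, annotation and strand are not given, and the part of Ly9 reads in the Cd244 values, if any, was not tested.

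Cd160 and Cd244 are also receptors of natural killer (NK) cells. The 7 NK markers summed to 12436 to 12783 in supplemented supernatant, 15336 to 15974 in supernatant, 10179 to 10482 in fresh medium without methionine and 8758 to 9374 in complete fresh medium, mostly Klrk1 and Eomes, which activated CD8 T cells express too. Of the 6 that were tested, 3 were higher and 2 lower in fresh medium without methionine, where 43.3% of all genes were called higher and 42.3% lower. The 2 lower were Klrb1c and Fcer1g. Klrb1c, the gene of NK1.1, averaged 253 reads in supplemented supernatant, 55.3 in supernatant, 24.6 in fresh medium without methionine and 102 in complete fresh medium, the same order of media as Cd244. Its log2 fold change was -2.03 for methionine removal in fresh medium and 2.18 for methionine added to supernatant, and that of Fcer1g was -0.48 and 0.58 in those comparisons. Klre1, another NK receptor gene of the list, moved the other way. It averaged 443 reads in supplemented supernatant, 1275 in supernatant, 833 in fresh medium without methionine and 376 in complete fresh medium. The marker Ncr1 had at most 16.6 reads and Klra8 at most 1.14 reads in any library. The part of NK cells in the Cd160 and Cd244 values was not tested.

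Entpd1 and Havcr2 fell by less than those 3 genes when methionine was withdrawn from fresh medium. Entpd1 encodes CD39, an ectoenzyme that degrades extracellular ATP toward AMP, the substrate from which CD73 makes adenosine. It had 1214, 1302, 1253 and 1184 depth-normalized reads in supplemented supernatant, 1022, 1037, 1042 and 1044 in supernatant, 718, 741, 738 and 706 in fresh medium without methionine, and 1251, 1160.0, 1346 and 1327 in complete fresh medium. Fresh medium without methionine held the lowest libraries and supernatant the next, and supplemented supernatant overlapped complete fresh medium (interval of the log2 difference -0.13 to 0.061). Its log2 fold change was -0.81 (SE 0.0475, adjusted p 6.82e-17) for methionine removal, -0.29 (SE 0.0475, adjusted p 1.2e-06) for supernatant and 0.26 (SE 0.0475, adjusted p 1.06e-05) for methionine added to supernatant. On FPKM the last 2 were called with the replicate block and not without it (adjusted p 0.0989 and 0.217).

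Havcr2 encodes TIM-3, a receptor marking terminally differentiated and exhausted CD8 T cells. It had 335, 325, 345 and 337 depth-normalized reads in supplemented supernatant, 349, 379, 401 and 309 in supernatant, 270.4, 313, 278 and 294 in fresh medium without methionine, and 372, 368, 393 and 410.2 in complete fresh medium. Fresh medium without methionine was lowest on average, and its libraries overlapped those of supernatant. The log2 fold change was -0.42 (SE 0.0769, adjusted p 8.8e-06) for methionine removal, whereas supernatant over complete fresh medium (-0.11, interval -0.26 to 0.049) and supplemented supernatant over supernatant (-0.093, interval -0.25 to 0.064) were not called. With total-read scaling the first of these 2 values was positive (0.038, adjusted p 0.647) and the second was called lower (-0.22, adjusted p 0.00795). Supplemented supernatant over complete fresh medium had -0.20 (SE 0.0769, adjusted p 0.0226), a call lost when replicate 1 of supplemented supernatant (adjusted p 0.0536) or replicate 3 of complete fresh medium (0.0727) was left out.

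**Figure D3:**
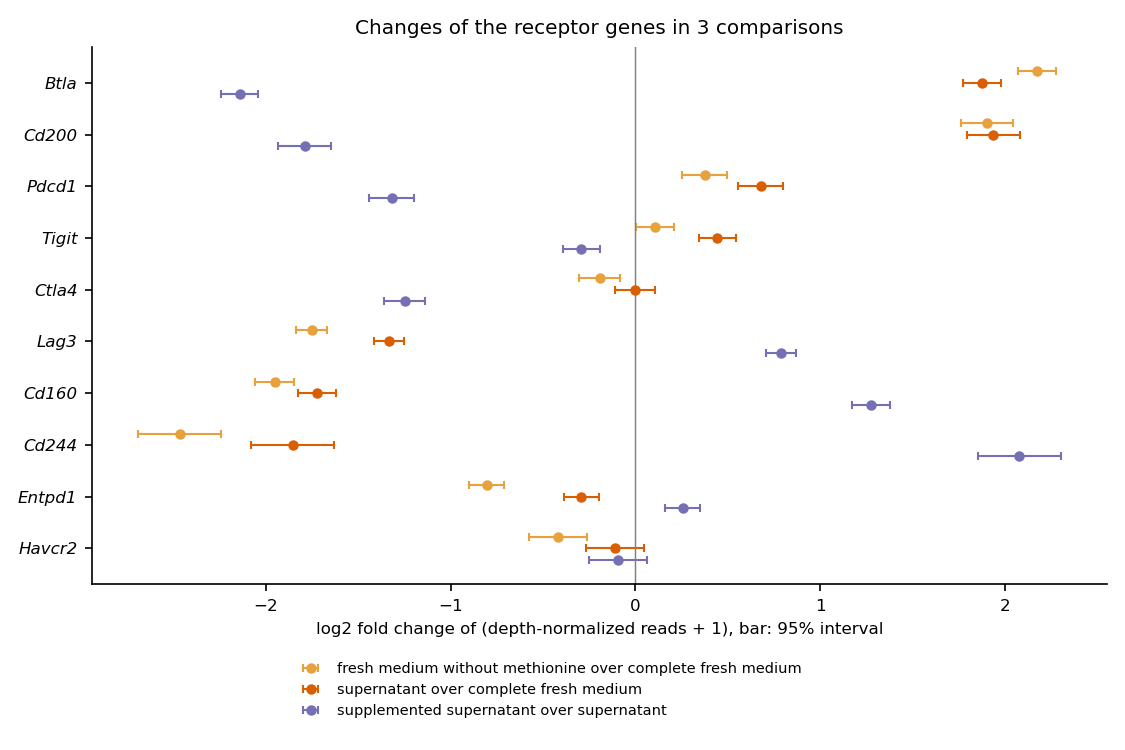
Log2 fold change of each receptor in 3 comparisons, with 95% intervals from the limma fit. Btla (2.17 and 1.88) and Cd200 lie to the right without added methionine and to the left when it was added to supernatant, Lag3, Cd160 and Cd244 do the reverse, and among the 3 values of Ctla4 the one furthest from 0 is that for methionine added to supernatant (-1.25).

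Supernatant and fresh medium without methionine did not give equal receptor levels. Against fresh medium without methionine, 8 of the 10 receptors were called higher in supernatant and 1 (Btla) lower, where 14.0% of all genes were called higher and 12.9% lower (26.8% in all). Libraries did not overlap for 8 receptors, beside 28.7% of all genes. Log2 fold changes of the 8 ran from 0.19 for Ctla4 to 0.61 for Cd244, with Entpd1 at 0.51 (SE 0.0475, adjusted p 3.54e-10) and Lag3 at 0.42 (SE 0.0408, adjusted p 1.05e-09). Btla had -0.30 (SE 0.0498, adjusted p 2.1e-05). In limma on FPKM, 0 receptors were called after adjustment and 3 had an unadjusted p under 0.05, while with the replicate block 6 were called. On recovered reads edgeR called 9 and DESeq2 8. The call for Ctla4 was not made by DESeq2 on 15 libraries (adjusted p 0.126).

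Supplemented supernatant was also set against complete fresh medium, both of which hold added methionine. Of the receptors, 1 (Tigit) was called higher and 6 lower, where 32.5% of all genes were higher and 32.5% lower (65.0% in all). Libraries did not overlap for 7 receptors, beside 56.1% of all genes. Ctla4 (-1.25), Pdcd1 (-0.64), Lag3 (-0.54), Cd160 (-0.45), Btla (-0.27) and Havcr2 (-0.20) were the 6. On FPKM the calls were for Ctla4 and Pdcd1, and with the replicate block for all but Tigit of the 7 (adjusted p 0.114). The Tigit call was also lost with quantile normalization (adjusted p 0.139). Cd200 was not called (0.15, interval 0.0056 to 0.29), but it was when replicate 0 of supplemented supernatant (adjusted p 0.0193) or replicate 3 of complete fresh medium (0.0263) was left out, and with total-read scaling (0.0408).

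The interaction asked whether methionine changed a receptor by a different amount in supernatant than in fresh medium. It is the log2 effect of methionine in supernatant minus that in fresh medium. It was called negative for 8 of the 10 receptors and positive for 0, beside 25.0% of all genes called negative and 27.6% positive (52.6% in all). At an unadjusted p under 0.05 the number of positive receptors was 0 in limma, 0 in edgeR and 0 in DESeq2. The largest was that of Ctla4, -1.44 (SE 0.0763, adjusted p 8.41e-17). Its methionine effects had opposite signs in supernatant and in fresh medium on these values, but the sign in fresh medium turned under quantile normalization, where methionine removal gave 0.083. Lag3 (-0.96, SE 0.0577, adjusted p 1.87e-15), Pdcd1 (-0.94, SE 0.0846, adjusted p 3.6e-11) and Cd160 (-0.68, SE 0.0725, adjusted p 1.78e-09) followed. Entpd1 (-0.55) and Havcr2 (-0.51) were called too. On FPKM the call was made for Ctla4 and Pdcd1, and with the replicate block for these 6. Pdcd1 was lower with methionine in both kinds of medium, by more in supernatant, while Lag3, Cd160 and Entpd1 were higher with it in both, by less in supernatant. Btla (0.032, interval -0.11 to 0.18) and Cd200 (0.11, interval -0.088 to 0.32) were not called.

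Cd244 (-0.39, SE 0.156, adjusted p 0.0364) and Tigit (-0.19, SE 0.0699, adjusted p 0.026) were called by narrow margins. Cd244 lost the call without any 1 of 10 libraries (replicate 0, 1 or 3 of complete fresh medium, 0 or 2 of fresh medium without methionine, 0 or 3 of supernatant, and 1, 2 or 3 of supplemented supernatant), with adjusted p 0.0548 to 0.0841, with no filter (adjusted p 0.0669), a pseudocount of 8 (0.0504) and total-read scaling (0.0513), and on FPKM with the replicate block (0.132) or without it (0.636). Tigit lost it without replicate 0 of complete fresh medium (0.0576), 1 of fresh medium without methionine (0.0644), 1 of supernatant (0.0529) or 0 of supplemented supernatant (0.0792), with edgeR (adjusted p 0.0814) and DESeq2 (0.0664) on 15 libraries, with total-read scaling (0.057), and on FPKM with the replicate block (0.25) or without it (0.799).

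**Figure D4:**
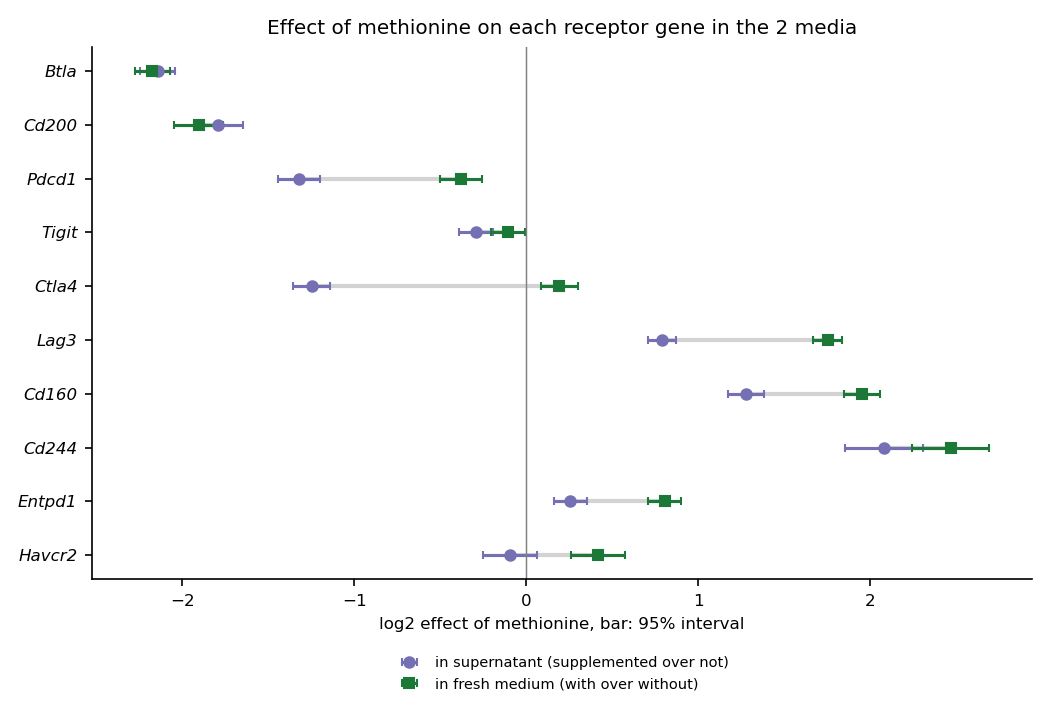
Log2 effect of methionine on each receptor in supernatant (circles) and in fresh medium (squares), with 95% intervals and a grey line joining the pair. The circles lie to the left of the squares for Ctla4 (difference -1.44) and Lag3 (-0.96), and the pairs for Btla and Cd200 nearly coincide.

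Genes whose profile over the 16 libraries was most like that of a receptor were picked by Pearson correlation among 9471 annotated genes averaging 100 reads or more. The correlation is a description, since all points share the same 4 media. Ctla4 was most like Tnfaip3 (0.992) and Ifngr1 (0.974). Tnfaip3, which encodes the NF-kappa B regulator A20, averaged 1489 ± 151 reads in supplemented supernatant, 2623 ± 60.1 in supernatant, 2389 ± 60.5 in fresh medium without methionine and 2712 ± 45.1 in complete fresh medium (SD, n = 4 each), so it too was lowest in supplemented supernatant. A total of 18 genes were above 0.95 for Ctla4, 38 for Pdcd1 and 11 for Entpd1, and 0 for Tigit and Havcr2. Far more were above it for Lag3 (815), Cd244 (1095), Btla (1257), Cd200 (1446) and Cd160 (1490). Pdcd1 was most like Ubap1 (0.986) and Jarid2 (0.977), and among the genes most like Entpd1 was Ctsw (0.971). Lag3 was most like Pfkl (0.998) and Sc4mol (0.996), where Pfkl is a phosphofructokinase of glycolysis. Cd160 was most like Acadvl (0.997) and Acly (0.997), Cd244 like Vldlr (0.993) and Swap70 (0.993), Btla like Dstn (0.998) and Ccng1 (0.997), and Cd200 like Rnf113a2 (0.996) and Rragc (0.995). Tigit was most like Ctla2a (0.923) and Klrk1 (0.920), and Havcr2 like Ctsc (0.884) and Tbc1d14 (0.856).

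Ligands and partners of the receptors moved in both directions. Of the 17 tested, 8 were higher, 8 lower and 1 not called (median -0.091) in fresh medium without methionine, where 43.3% of all genes were called higher and 42.3% lower (median 0.0092). Ligands shared by CTLA-4 and CD28 were among those that rose: Cd80 averaged 1513 ± 54.8 reads in fresh medium without methionine and 216 ± 14.3 in complete fresh medium (SD, n = 4 each; log2 fold change 2.81, adjusted p 2.06e-27), and Cd86 had a log2 fold change of 1.71. The PD-1 ligand gene Cd274 averaged 3649 ± 77.1 reads in fresh medium without methionine and 1066 ± 53.4 in complete fresh medium (SD, n = 4 each; log2 fold change 1.77, adjusted p 3.02e-27). Among those that fell, Lgals3, which encodes galectin-3, averaged 786 ± 47.1 reads in fresh medium without methionine and 4582 ± 258 in complete fresh medium (SD, n = 4 each; log2 fold change -2.54, adjusted p 1.23e-31), and Pvrl2, a nectin that TIGIT binds weakly, averaged 10.4 ± 3.34 reads in fresh medium without methionine and 61.0 ± 4.02 in complete fresh medium (SD, n = 4 each; log2 fold change -2.48, adjusted p 3.27e-10). For methionine added to supernatant, 6 were higher, 9 lower and 2 not called (median -0.29), where 41.8% of all genes were called higher and 41.8% lower. Cd80 then had -2.63 and Cd86 -1.93, against 2.67 for Lgals3 and 1.92 for Pvrl2. Btla rose by 2.17 on the log2 scale without methionine while Tnfrsf14, the gene of its ligand, fell (-0.66). The 2 were named for this pairing after their values were seen, as was the galectin-9 gene Lgals9, whose product binds TIM-3, which fell (-1.01).

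Among 17 tested genes of other inhibitory receptors, 5 were higher, 11 lower and 1 not called (median -0.46) without methionine in fresh medium, where 43.3% of all genes were called higher and 42.3% lower. Lilrb4, an inhibitory receptor with tyrosine motifs, averaged 2721 ± 103 reads in fresh medium without methionine and 408 ± 24.3 in complete fresh medium (SD, n = 4 each; log2 fold change 2.74, adjusted p 1.09e-29). Lair1, a collagen receptor, averaged 119 ± 9.44 reads in fresh medium without methionine and 679 ± 34.2 in complete fresh medium (SD, n = 4 each; log2 fold change -2.51, adjusted p 2.59e-23), and Klra7, a Ly49 receptor whose family may share reads, had -1.05. Siglecg was higher at low counts, with 16.7 ± 5.40 reads in fresh medium without methionine and 4.11 ± 2.30 in complete fresh medium (SD, n = 4 each; log2 fold change 1.87, adjusted p 8.46e-05). For methionine added to supernatant, 5 were higher, 7 lower and 5 not called (median 0.00069), where 41.8% of all genes were called higher and 41.8% lower. Log2 fold changes put Lair1 at 2.06, Klra7 at 0.99, Lilrb4 at -2.58 and Siglecg at -1.69.

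Of 25 tested genes of proteins that relay or handle the receptors, 6 were higher, 18 lower and 1 not called (median -0.30) in fresh medium without methionine, where 43.3% of all genes were called higher and 42.3% lower. Ptpn6, the gene of the phosphatase SHP-1, averaged 3299 ± 107 reads in fresh medium without methionine and 10184 ± 141 in complete fresh medium (SD, n = 4 each; log2 fold change -1.63, adjusted p 4.37e-31). Sh2d1a, which encodes the CD244 adaptor SAP, averaged 708 ± 47.4 reads in fresh medium without methionine and 2012 ± 90.6 in complete fresh medium (SD, n = 4 each; log2 fold change -1.51, adjusted p 8.21e-24), so it was lower in the same medium as Cd244. Dok1, an adaptor that limits signalling, rose by 1.97 and Cmtm6, a stabilizer of PD-L1 protein, by 0.43. With methionine added to supernatant, 12 were higher, 10 lower and 3 not called (median 0.049), where 41.8% of all genes were called higher and 41.8% lower. The T cell receptor associated adaptor Trat1 had 1.43 and Ptpn6 1.29, against -1.59 for Dok1 and -0.62 for Cmtm6.

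Of 40 tested transcription factor genes that have been studied at these receptor genes, 23 were higher, 16 lower and 1 not called (median 0.25) in fresh medium without methionine, where 43.3% of all genes were called higher and 42.3% lower. Egr2, an early response factor, averaged 372 ± 26.7 reads in fresh medium without methionine and 35.1 ± 5.45 in complete fresh medium (SD, n = 4 each; log2 fold change 3.38, adjusted p 6.95e-22), and Crem, a cyclic AMP responsive factor, averaged 6322 ± 312 reads in fresh medium without methionine and 1544 ± 73.3 in complete fresh medium (SD, n = 4 each; log2 fold change 2.03, adjusted p 1.32e-30). Irf8 averaged 1065 ± 38.0 reads in fresh medium without methionine and 3714 ± 103 in complete fresh medium (SD, n = 4 each; log2 fold change -1.80, adjusted p 4.95e-29), and Id3, an inhibitor of E proteins, had -1.53. With methionine added to supernatant, 13 were higher, 22 lower and 5 not called (median -0.29), where 41.8% of all genes were called higher and 41.8% lower. Log2 fold changes put Irf8 at 1.19 and Id2 at 0.96, against -2.88 for Egr2 and -2.47 for Crem. The supernatant comparison and that in fresh medium share no library.

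**Figure D5:**
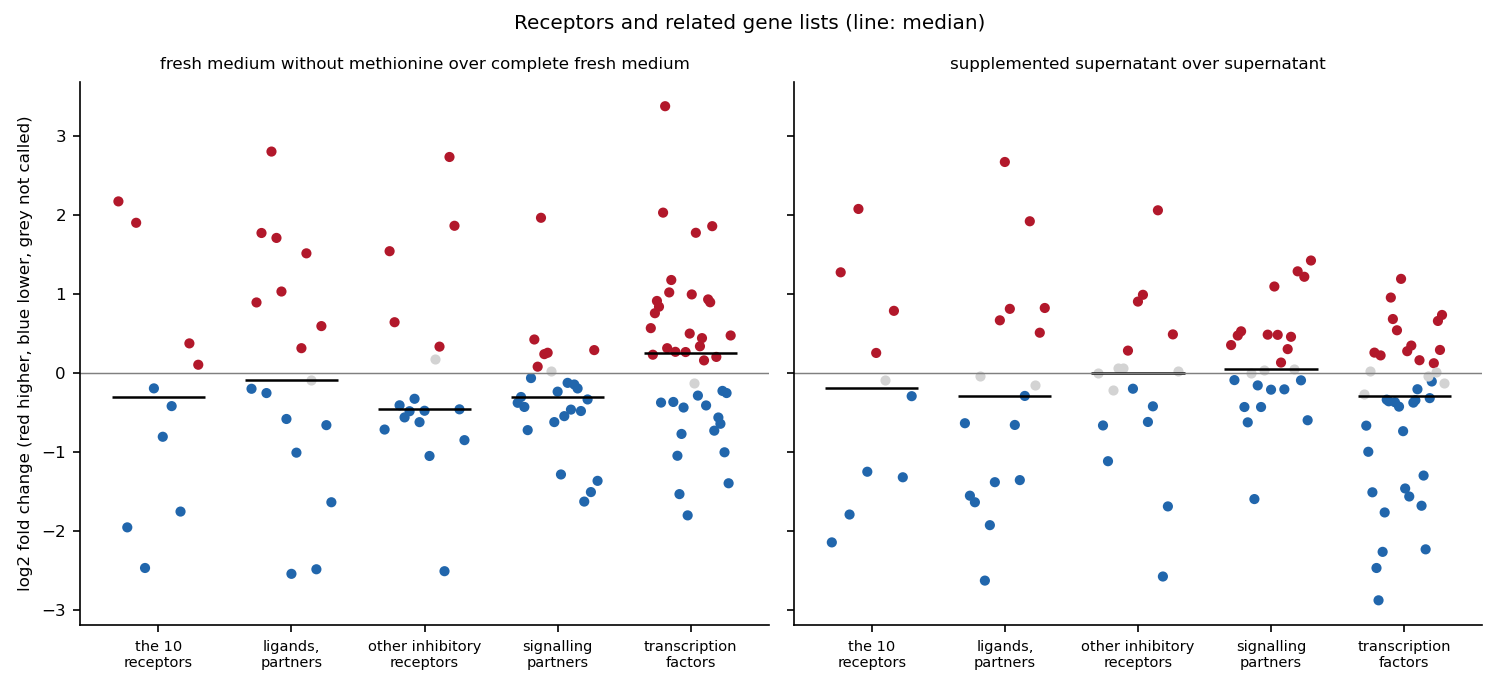
Log2 fold changes of the 10 receptors and of each tested gene of 4 related lists, for fresh medium without methionine over complete fresh medium (left) and supplemented supernatant over supernatant (right). Points are genes, coloured by whether they were called higher, lower or not, and lines are list medians, which for the receptors are -0.31 and -0.19.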

How the data were processed

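RNA of 16 libraries (4 media, 4 each) was measured by RNA-seq. The authors deposited a table of depth-normalized values, a signal that came out as whole reads divided by 1 factor per library (100% of values within 0.001 of a whole read), and a table of FPKM. The submitters' processing notes name FastQC 0.11.3, TopHat2 2.0.13, Bowtie2 2.2.1, Cufflinks, Cuffdiff 2.2.1 and the builds mm10 and GRCm38, with no role or order. The counting tool, annotation and strand are not given in the sources used here. Groups and replicate numbers came from the labels.

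Values were tested with limma 3.58.1 (R 4.3.3) on log2(depth-normalized value + 1), with 1 mean per medium over all 16 libraries, a mean-variance trend and a two-sided test. Genes with a mean of at least 10 were kept (12469 of 17159), and p-values were Benjamini-Hochberg adjusted over all of them, called below 0.05. FPKM was tested on log2(FPKM + 0.1). A fold change on these scales understates the change of low genes. The scripts were tested on simulated data in which 200 genes were changed in 1 medium. That does not test the scaling where most genes change. Libraries held 25799636 to 42308209 recovered reads.

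Alternatives were a pseudocount of 8, no filter, total-read and quantile scaling, edgeR 4.0.16 and DESeq2 1.42.0 on recovered reads, FPKM, a replicate block, only the libraries compared, and leaving out each library. The count tests used 15 libraries, because for replicate 1 of fresh medium without methionine the value of 1 read was too close to 1 for the reads to be checked as recovered.

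Same-numbered libraries were checked for pairing by the correlation of their deviations from the group means. It was -0.07 to 0.07 over 24 pairs in the depth-normalized table and 0.43 to 0.86 in the FPKM table, so the FPKM results are also given with the replicate block.

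Named genes were the 10 receptors, from each related list the 2 called genes with the highest and the 2 with the lowest log2 fold change in the comparison of fresh media and in that of supplemented supernatant with supernatant, and for each receptor the 2 genes of highest correlation. A gene this rule names for Entpd1 is not reported here. Members, lists and tests were chosen with earlier results of these data known. Gene positions are from GENCODE M21. Motifs in receptor proteins were not analysed here.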

Additional observations from a re-analysis of the deposited data

Results flagged for a closer look

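A single library stood apart from the other 3 of its medium in 4 of the 40 combinations of receptor and medium, judged by the gap to its nearest neighbour over the whole range (above Dixon's 95% critical value for 4 samples). By chance about 1 group in 20 is picked this way. Pdcd1 had 507 depth-normalized reads in replicate 3 of supplemented supernatant. Btla had 382 reads in replicate 0 of supplemented supernatant and 1805 in replicate 3 of supernatant. Cd244 had 276 reads in replicate 2 of complete fresh medium.

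For 8 receptors the effect of methionine in supernatant differed from that in fresh medium by the interaction term in limma. Over all genes tested 52.6% were called for it, 25.0% negative and 27.6% positive. The calls for Cd244 and Tigit were lost under several alternatives, as given above. The log2 difference was -1.44 for Ctla4, -0.96 for Lag3, -0.94 for Pdcd1, -0.68 for Cd160, -0.55 for Entpd1, -0.51 for Havcr2, -0.39 for Cd244 and -0.19 for Tigit, with 4 libraries per medium.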

How the results depend on the processing

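Most receptor results kept their direction and their side of the threshold under the alternatives. The FPKM table gave fewer calls. Over all genes its calls were 851 for the interaction (4057 with the replicate block, 6557 on depth-normalized values), 37 for supernatant over fresh medium without methionine (1367 with the block, 3344), 2201 for supplemented supernatant over complete fresh medium (8106) and 6818 for supplemented supernatant over supernatant (10433). Receptors called on FPKM were 2 for the interaction (8 on depth-normalized values), 0 for supernatant over fresh medium without methionine (9) and 2 for supplemented supernatant over complete fresh medium (7). In those 3 comparisons the FPKM table with the replicate block called 6 each. On depth-normalized values the replicate block ended 1 receptor call, that of Tigit in fresh medium without methionine over complete fresh medium (adjusted p 0.0582), and changed no other. That call was also lost with quantile normalization (adjusted p 0.346) and with only the libraries compared (0.052). For Ctla4 in supernatant over complete fresh medium the log2 value was 0.021 on FPKM with or without the block, 0.0069 in edgeR, 0.14 with total-read scaling, 0.24 with quantile normalization, and -0.039 to 0.022 on leaving out 1 library. In fresh medium without methionine over complete fresh medium Ctla4 had 0.083 with quantile normalization. Havcr2 in supernatant over complete fresh medium had 0.038 with total-read scaling, and the Btla interaction was -0.022 with quantile normalization (adjusted p 0.817). The cause was not tested. Total-read scaling put the median of all genes at 0.17 for methionine removal, 0.15 for supernatant and -0.14 for methionine added to supernatant. The lowest receptor count was 52 reads, for Cd244, so depth limits that gene most.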

Other observations

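In the FPKM table, receptors followed the replicate number across media. The same replicate number was the highest in all 4 media for 4 of the 10 receptors and the lowest for 7, and both held for 3 (Pdcd1, Lag3 and Btla). In the depth-normalized table this held for 0 receptors in either direction. For Pdcd1 and Lag3 replicate 2 was highest and replicate 3 lowest in FPKM, and for Btla the reverse. No label says what the numbers share.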
